A study of Mus musculus with 5 samples.

Results

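The heat shock and chaperone machinery was followed in 10 of its genes through the neutrophil compartment of the mouse and through the plasma cells and macrophages that came with it. The genes were chosen by name, with earlier results of these data known: Hspa1a, Hspa1b, Dnajb1, Hsph1, Dnaja1, Hsp90aa1, Hspa8, Hspd1, Hspe1 and Hspa5. These 10 genes were all present among the 21995 genes of the deposited count matrix, and all 10 passed the filter on low counts.

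The study sorted living (DAPI-negative) CD11b+ Ly6G+ cells, the gate for neutrophils, from C57BL/6 mice at steady state under specific-pathogen-free housing. The cells came from 6 sites (intestine, spleen, liver, lung, bone marrow and blood) in animals of 2 ages. The sample labels give the young mice 10 weeks and the series design 8 weeks, and the old mice 20 months. The 4 solid organs were digested with enzymes, whereas blood and marrow were collected directly. Cells of all tissues and both ages were tagged, mixed and loaded on BD Rhapsody cartridges, a microwell system that counts transcripts by unique molecular identifiers (UMIs), 1 cartridge for each of 2 pools, YO1 and YO2. A barcode in the count matrix names its pool and not its tissue or age, so each level given here is over all tissues and both ages, and tissue and age were not compared. The mice behind a pool are not named, and p-values do not measure the spread between mice. The fit takes out the mean difference of the 2 pools. Its p-values therefore measure how differences between classes vary between the pools, with a spread shared over all classes.

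Chaperones bind unfolded protein and help it reach or regain its shape. Hsp70 proteins work through cycles of ATP binding and hydrolysis that J-domain partners and nucleotide exchange factors drive. Hsp90 takes over late folding steps of kinases and receptors. In the cytosol, heat or other damage to proteins releases the transcription factor HSF1, which binds heat shock elements and induces Hspa1a, Hspa1b, Dnajb1 and Hsph1 strongly and Hsp90aa1, Hspd1 and Hspe1 as well. The endoplasmic reticulum has its own response, the unfolded protein response, for which Hspa5 is the usual marker and on which antibody-secreting plasma cells depend. Tissue digestion is known to induce several of these genes during cell isolation, together with the immediate early genes Fos, Jun and Egr1. Since barcodes do not give the tissue, a difference between classes cannot be told apart here from a difference in tissue and digestion.

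The pools held 38072 barcodes and 81553632 UMIs, with 19505 cells kept in YO1 at a median of 1231 UMIs and 17215 in YO2 at a median of 1454. Classes were set by UMIs of marker genes that include no member: 742 and 78 cycling granulocyte precursors (YO1 and YO2), 2234 and 451 Ltf-high immature neutrophils, 443 and 32 late immature cells with Ngp but little Ltf, 10302 and 9927 mature neutrophils, 23 and 118 activated neutrophils (Il1a, Icam1, Nr4a3), 43 and 377 plasma cells and 229 and 509 C1q macrophages. Summed neutrophil markers (S100a8, S100a9, Csf3r, Cxcr2, Retnlg, Mmp9, Ly6g) stood at 85161 and 68918 CPM (counts per 1000000 UMIs) in mature cells, 7765 and 8058 in macrophages, and 2867 and 1928 in plasma cells. Csf3r UMIs were present in 44.5% and 62.5% of the macrophages, so neutrophil RNA was not absent from that class. The 2 cycling sums differed in make-up: the primary granule genes Elane, Mpo, Prtn3 and Ctsg summed to 4490 CPM in YO1 and 14 in YO2, where Mpo and Ctsg were at 0. The thresholds cut continuous ranges, with 5732 mature cells having S100a8 and S100a9 at 2 to 4% of their UMIs, just above the limit of 2%. The pools shared 406 cell labels.

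UMIs were summed per class and pool, and a level is the CPM of the gene within all UMIs of that class and pool. Over all 10 genes, these levels summed to 5117 and 5049 CPM in macrophages (YO1 and YO2), 3534 and 3018 in plasma cells and 2641 and 2356 in mature neutrophils. They came to 2366 and 2085 CPM in cycling precursors, 1118 and 1226 in Ltf-high and 1040 and 1150 in Ngp-positive immature neutrophils. Activated neutrophils had 3234 and 2577 CPM. The first value is from 23 cells, in which endothelial markers (Pecam1, Cdh5, Stab2, Clec4g, Oit3, Kdr) summed to 3065 CPM. These markers summed to 15.1 CPM in activated cells of YO2 and to 392 in mature cells of YO1. Their part in the activated levels was not tested. Macrophages stood above every other class in both pools, and both kinds of non-cycling immature neutrophils stood below all others. Activated neutrophils overlapped both plasma cells and mature neutrophils, and mature neutrophils overlapped cycling precursors. The place of the plasma cells depends on their immunoglobulin UMIs, 42.1% and 57.6% of their total: without immunoglobulin genes, S100a8 and S100a9 in the totals, plasma cells had 6188 and 7301 CPM, above the macrophages at 5147 and 5084.

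**Figure D1:**
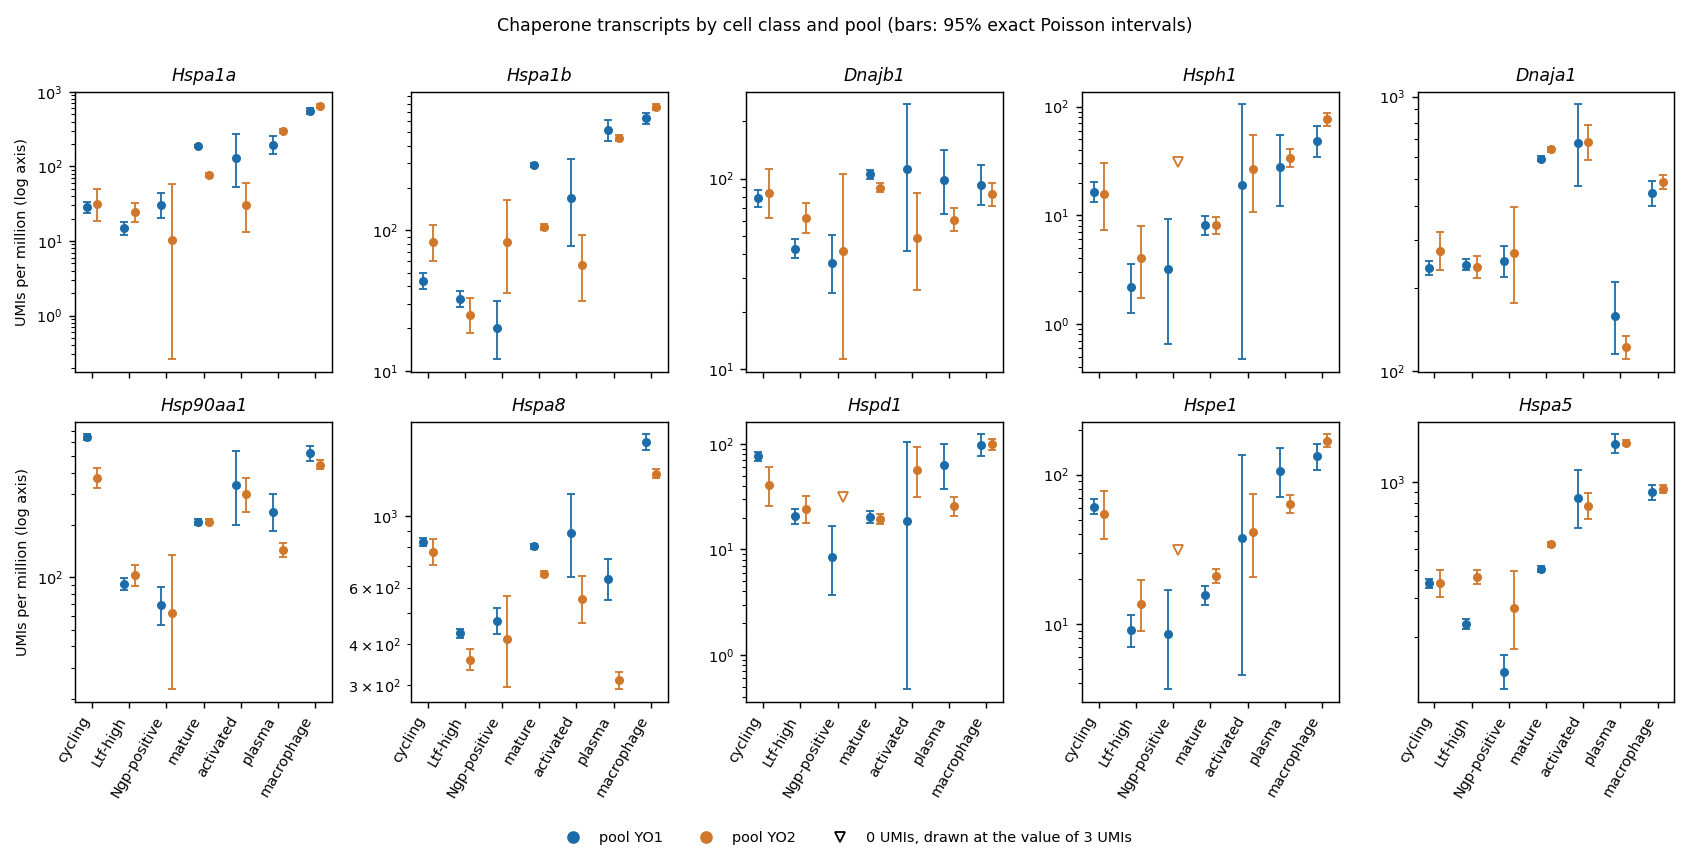
Level of each of the 10 genes in the 7 classes, as CPM on a log axis. Each point is 1 pool (YO1 or YO2), bars are exact 95% Poisson intervals that cover counting error only, and open triangles mark 0 UMIs, drawn at the value of 3 UMIs. Hspa1a and Hspa1b lay below the mature level in the 3 immature classes and above it in plasma cells and macrophages, Hspa5 was highest in plasma cells, and Dnaja1 was highest in activated and mature neutrophils.

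The mature neutrophil was the reference of every comparison. Changes were fitted with edgeR's quasi-likelihood test over 13 sums and 11497 genes, with the pool as a block, and a gene was called at an adjusted p under 0.05 over all genes tested. Each change is given as log2 with its standard error (SE). The scaling of the libraries matters because classes differ in RNA content. With edgeR's trimmed mean (TMM), the median gene moved by 0.01 in cycling precursors, -0.08 in plasma cells and 0.01 in macrophages, against 0.50, -0.39 and 0.83 when scaled to total UMIs and 0.46, 0.79 and 0.70 with DESeq2's size factors. Some of the calls that turn on this choice are named beside the genes, but not all. In Ltf-high cells 7 of the 10 genes were called lower with TMM, 8 with total UMIs and 6 with DESeq2. In Ngp-positive cells these numbers were 6, 6 and 7.

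**Figure D2:**
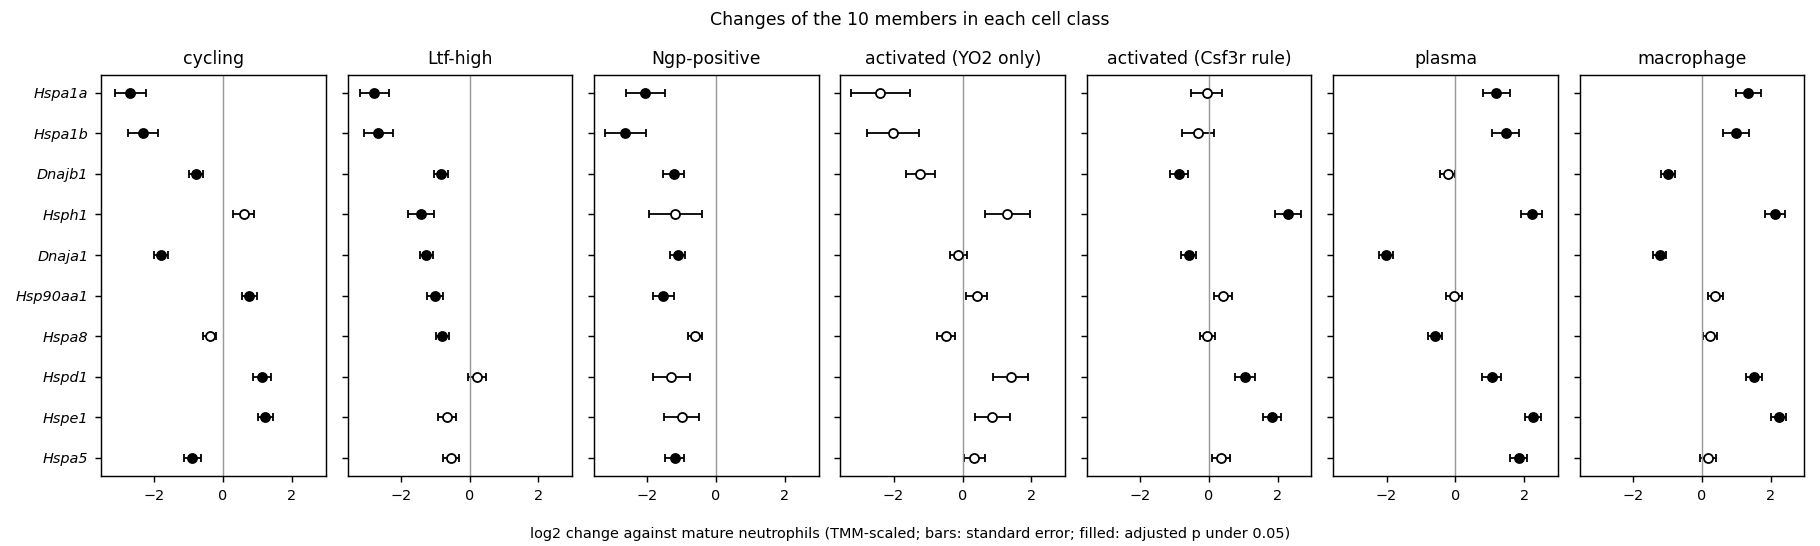
Log2 change of the 10 genes in each class against mature neutrophils, from edgeR on pool sums, with bars of 1 SE. Filled points have an adjusted p under 0.05 over all genes tested. The immature classes lie mostly to the left of 0, and Hsph1, Hspe1, Hspa1a and Hspa1b lie to the right in plasma cells and macrophages. The panel of activated neutrophils rests on the YO2 sum alone, and a second panel gives activated cells chosen by Csf3r.

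Hspa1a and Hspa1b encode the stress-inducible cytosolic Hsp70, and they are a pair of intron-less neighbours with nearly the same coding sequence. On GRCm38, Hspa1a lies at chr17:34969190-34972156 and Hspa1b at chr17:34956436-34959238, both on the minus strand, 9951 bases apart and with 1 exon each. Of the 42-base words of their transcripts, 62.6% (Hspa1a) and 64.4% (Hspa1b) occur in the other gene, but 0% in the last 500 bases, where a 3' tag falls. The split of UMIs between them is uncertain where reads fall further upstream, so their sum is given as well. Gm20481, annotated on the opposite strand, overlaps Hspa1a and is counted in the matrix.

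The promoter windows of the pair (250 bases before to 50 after the start, RefSeq on GRCm38.p6) were identical at 296 of 300 positions (98.7%). The window of Hspa1a is shown because the inducible Hsp70 is the usual readout of HSF1, and that of Hsph1 because its change was among the largest in plasma cells and macrophages. Hspa1a is at chr17:34972107-34972406 (minus strand) and Hsph1 at chr5:149636287-149636586 (minus strand). Capitals mark heat shock elements: in Hspa1a the short form (GAANNTTC or TTCNNGAA), 104 bases before the start, and in Hsph1 the long form (the short one followed, after NN, by GAA or TTC in turn), 36 bases after it. Both strands were searched, and each match of the long form contains matches of the short form. The Hsph1 window also holds a separate short match, 33 bases before the start, which is left in lower case. In another Hsph1 window (chr5:149636266-149636565) the long form begins 15 bases after the start. The long form was present in 198 of 32851 promoter windows (0.603%) and the short form in 15.1%. Hspa1b held its short match at the same place as Hspa1a, neither window of the pair held the long form, and the windows of Dnajb1 held neither form.
Hspa1a: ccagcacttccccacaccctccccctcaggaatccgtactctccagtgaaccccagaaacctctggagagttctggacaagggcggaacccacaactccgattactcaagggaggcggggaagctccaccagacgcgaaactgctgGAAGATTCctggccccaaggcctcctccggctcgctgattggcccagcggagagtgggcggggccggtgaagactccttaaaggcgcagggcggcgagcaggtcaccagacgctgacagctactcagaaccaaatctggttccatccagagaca
Hsph1: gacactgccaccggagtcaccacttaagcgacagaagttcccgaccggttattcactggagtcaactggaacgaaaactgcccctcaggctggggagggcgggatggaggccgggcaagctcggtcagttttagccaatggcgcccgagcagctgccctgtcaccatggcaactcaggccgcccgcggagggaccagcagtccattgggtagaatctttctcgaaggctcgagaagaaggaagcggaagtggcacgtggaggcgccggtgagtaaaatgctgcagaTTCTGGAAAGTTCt
Of the 10 genes, 8 had a window in the table, and Hsp90aa1 and Hspa8 had none. A match describes letters in these windows and was not measured as binding.

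The inducible Hsp70 pair was low in immature neutrophils, higher in mature ones and higher again in plasma cells and macrophages. The share of each class that came from digested organs is not known. Summed, Hspa1a and Hspa1b stood at 47.2 and 49.3 CPM in Ltf-high cells (YO1 and YO2), 51.0 and 93.3 in Ngp-positive cells and 71.9 and 114 in cycling precursors. Mature neutrophils had 479 and 182 CPM, plasma cells 712 and 752, and macrophages 1186 and 1400. Both pools of each immature class lay below both pools of the mature cells, and both pools of plasma cells and macrophages above them. Without immunoglobulin genes, S100a8 and S100a9 in the totals, plasma cells had 1247 and 1820 CPM and overlapped the macrophages, at 1193 and 1410.

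Singly, Hspa1a was at 188 and 76.6 CPM in mature neutrophils, 14.9 and 24.1 in Ltf-high cells, 197 and 296 in plasma cells and 557 and 646 in macrophages. Hspa1b was at 291 and 105 CPM in mature neutrophils, 32.3 and 25.1 in Ltf-high cells, 516 and 456 in plasma cells and 629 and 754 in macrophages. As CPM of all UMIs, both genes had the same order of these 4 classes. In Ltf-high cells Hspa1a changed by -2.76 (SE 0.43, edgeR adjusted p = 8.33e-05) and Hspa1b by -2.66 (SE 0.42, edgeR adjusted p = 9.95e-05). In cycling precursors the changes were -2.70 (SE 0.44, edgeR adjusted p = 6.53e-05) and -2.33 (SE 0.44, edgeR adjusted p = 0.000238). The Ngp-positive cells had 30.8 and 10.4 CPM of Hspa1a and 20.2 and 82.9 of Hspa1b, and gave -2.06 (SE 0.57, edgeR adjusted p = 0.0318) for Hspa1a and -2.64 (SE 0.59, edgeR adjusted p = 0.00914) for Hspa1b. Within YO2 alone, Hspa1b changed by -0.32 there. The size of these changes follows the mature sum: without the YO1 or the YO2 sum of mature cells, the change of Hspa1a+Hspa1b went from -2.70 to -1.57 or -3.42 in Ltf-high cells and from -2.45 to -1.32 or -3.16 in cycling precursors, and stayed called.

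Plasma cells and macrophages exceeded mature neutrophils. In plasma cells Hspa1a rose by 1.19 (SE 0.39, edgeR adjusted p = 0.0156) and Hspa1b by 1.46 (SE 0.40, edgeR adjusted p = 0.0044). In macrophages Hspa1a rose by 1.35 (SE 0.37, edgeR adjusted p = 0.0051) and Hspa1b by 0.99 (SE 0.38, edgeR adjusted p = 0.0347). These 4 calls rest on the YO2 sum of the mature cells: without it the sum of the pair rose by 0.54 in plasma cells (edgeR adjusted p = 0.16) and by 0.41 in macrophages (edgeR adjusted p = 0.28). Within 1 pool alone, which has no test, the change of Hspa1a in plasma cells was -0.17 in YO1 and 2.42 in YO2. When cycling cells did not need granule genes, and activated cells neither the S100 share nor low Ngp, the sum was at -0.92 in cycling precursors (edgeR adjusted p = 0.222). In the same fit it was also not called in plasma cells (1.33), macrophages (1.15) and Ngp-positive cells (-2.29), whose cells were the same as before. Over 15 alternatives each, the sum was called in 13 in plasma cells, 12 in macrophages, 14 in cycling precursors, 12 in Ngp-positive cells and 15 in Ltf-high cells. In Ngp-positive cells it was not called without their YO1 sum (-1.84) or that of mature cells (-1.11). In macrophages the sum was at 1.04 without their YO2 sum (edgeR adjusted p = 0.077), and Hspa1b was not called without either macrophage sum (1.13 without YO1 and 0.83 without YO2). Hspa1a in plasma cells was at 0.71 without their YO2 sum (edgeR adjusted p = 0.28).

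Mature neutrophils were the class in which the pools differed most for this pair among those with over 100 cells in each pool. Their YO1 to YO2 ratio of the summed pair was 2.64 (exact 95% interval 2.52 to 2.76, counting error only), against 0.957 in Ltf-high cells and 0.847 in macrophages. Plasma cells, with 43 cells in YO1, had 0.947. With 1 library per pool, the difference between pools has no test. Endothelial markers (Pecam1, Cdh5, Stab2, Clec4g, Oit3, Kdr) moved with it: they summed to 392 CPM in mature cells of YO1 and 10 in YO2. Among the mature cells with no UMI of those markers, 9634 and 9803 cells, the pair stood at 474 and 177 CPM, against 479 and 182 in the whole class. A cell with no UMI of those markers can still hold endothelial RNA, and its part in the pair's level was not tested.

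In mature neutrophils, as in the immature classes, few cells held most UMIs of the pair. A UMI of Hspa1a or Hspa1b was seen in 11.8% and 10.0% of mature cells, 4.92% and 6.65% of Ltf-high cells, 37.2% and 62.1% of plasma cells and 56.8% and 67.2% of macrophages. No class here is known to lack the genes, and the Ltf-high share, at a median of 2986 and 4208 UMIs per cell against 1028 and 1348 in mature cells, is the nearest to a background. The richest 5% of mature cells held 85.6% and 82.7% of the class's UMIs of the pair, with up to 52 and 33 in 1 cell. In macrophages the richest 5% held 38.7% and 24.3%. They held 100% and 92.9% in Ltf-high cells, 89.7% and 89.2% in cycling precursors and 100% and 77.8% in Ngp-positive cells. This measure is high wherever few cells have a UMI of the pair, and it does not set mature cells apart from immature ones.

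With every cell thinned to 500 UMIs, cells with at least 3 UMIs of Hspa1a, Hspa1b and Dnajb1 together made up 3.12% of mature cells in YO1 (exact Clopper-Pearson interval 2.79 to 3.48%, counting error only) and 0.574% in YO2 (0.435 to 0.743%). Macrophages had 6.67% (3.78 to 10.8%) and 8.06% (5.84 to 10.8%), and plasma cells 3.46% in YO2 (1.85 to 5.84%) and 1 of 42 cells in YO1. Ltf-high cells had 0.0903% in YO1 and 0 of 451 cells in YO2, which allows a share of up to 0.665%. Without thinning, mature cells had 5.86% and 3.66% and macrophages 39.3% and 54.8%. At equal depth the share in macrophages of either pool lay above that of mature cells. That of Ltf-high cells lay below it in YO1, and in YO2 the limit for Ltf-high cells is above the mature share.

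**Figure D3:**
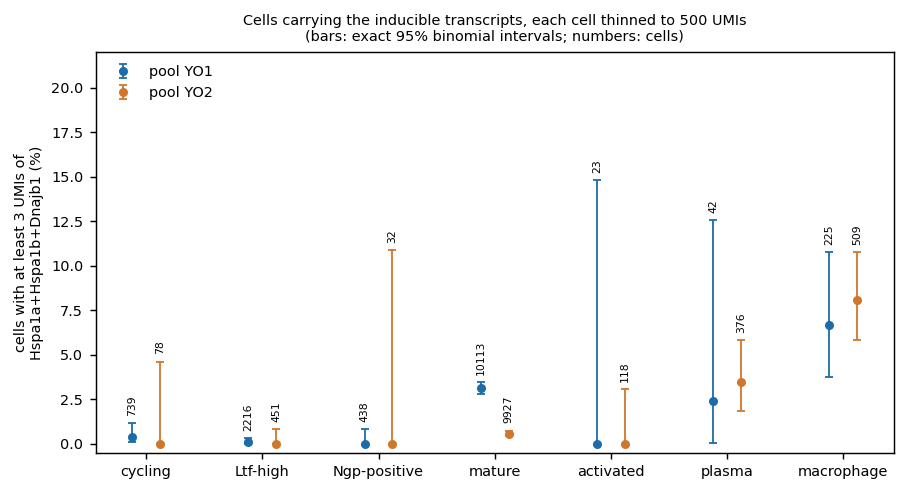
Share of cells with at least 3 UMIs of Hspa1a, Hspa1b and Dnajb1 together, in percent, by class and pool, with each cell thinned to 500 UMIs. Bars are exact 95% Clopper-Pearson intervals that cover counting error only. Macrophages had 6.67% and 8.06%, mature neutrophils 3.12% in YO1 and 0.574% in YO2, and Ltf-high cells 0.0903% and 0.

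Within the mature class, cells with at least 2 UMIs of the Hsp70 pair (667 in YO1 and 411 in YO2) were set beside the cells with 0 (9086 and 8933). Their median depths were 1070 and 1023 UMIs in YO1 and 2432 and 1333 in YO2. This split is a description, since its cells were chosen by 2 of the genes. Hsph1 was 6.45 and 11.4 times as high in the cells with the pair, Hspe1 4.36 and 5.12 times, Hsp90aa1 2.31 and 2.34 times, Dnajb1 2.16 and 1.62 times and Hspa8 1.87 and 1.85 times. Dnaja1 was not part of this pattern, with ratios of 0.994 and 1.13. The summed immediate early genes were at 0.880 and 0.813, with Fos at 0.823 and 0.80 and Egr1 at 0.750 and 0.810, although Jun was at 2.22 and 1.34.

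Markers of other cell types moved with this split. Endothelial markers were 5.75 and 3.08 times as high in the cells with the pair, macrophage markers 2.74 and 3.40 times and B cell markers 2.45 and 5.02 times, and neutrophil markers were at 0.688 and 0.704. The split was therefore repeated in the mature cells with no UMI of endothelial, macrophage or B cell markers or Jchain, 262 against 4587 cells in YO1 and 107 against 3626 in YO2, an alternative chosen after seeing the data. There Dnajb1 was 4.15 (interval 3.28 to 5.20) and 3.17 (2.27 to 4.33) times as high, Hsp90aa1 2.44 and 2.43 times and Hspa8 2.16 and 1.86 times. Hspe1 had 2.66 and 2.73, with intervals that include 1, and Hspa5 1.39 and 1.03. For Hsph1, which had the largest ratios in the first split, Dnaja1 and the immediate early genes, the text gives no ratio in these cells. A cell with few UMIs is more likely to have none of the markers, and the depths of these cells are not given. In these cells without other markers, 5090 and 3948 in all, the pair stood at 456 and 130 CPM, against 479 and 182 in the whole mature class.

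**Figure D4:**
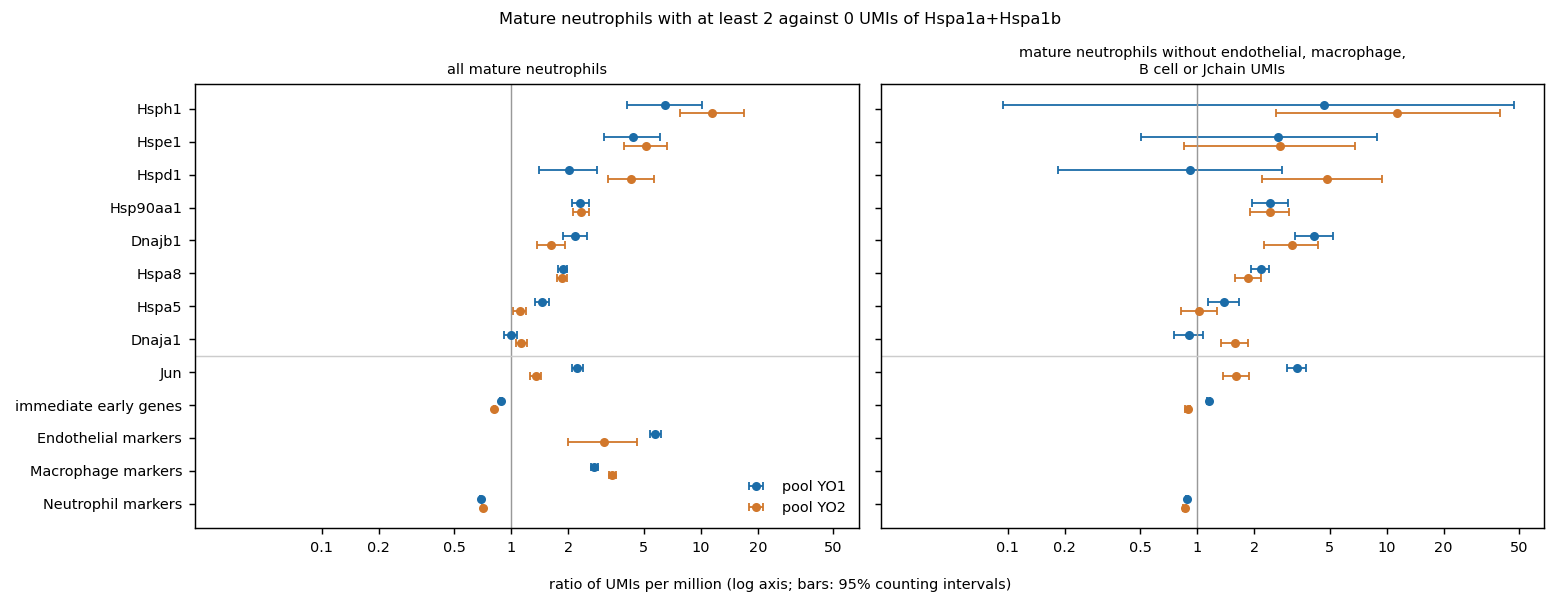
Ratio of levels in mature neutrophils with at least 2 UMIs of Hspa1a and Hspa1b to those with 0, on a log axis, by pool, in all mature cells and in mature cells without UMIs of endothelial, macrophage or B cell markers or Jchain. Bars are exact 95% intervals that cover counting error only. Dnajb1, Hsp90aa1 and Hspa8 lie above 1 in both panels and both pools.

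Subsets of the mature class showed no common direction for the pair. Each was set beside the mature cells with 0 UMIs of its genes, and cells between 0 and the minimum were left out. Mature cells with Egr1 had 0.735 times the level of cells without it in YO1 and 1.30 times in YO2, and those with at least 2 UMIs of Trem1 and Cd14 0.635 and 1.51 times. Cells with at least 3 UMIs of interferon-response genes (Ifit1, Isg15, Rsad2) were at 0.927 and 0.909. Dnaja1 was at 1.41 and 1.11 in the Trem1 and Cd14 subset, and Hspa5 at 1.39 and 1.25 and Hsp90aa1 at 1.33 and 1.26 in the Egr1 subset. These ratios compare cells within a library and have no test.

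Dnajb1 is the inducible J-domain partner of Hsp70, at chr8:83608193-83612653 on the plus strand. It was lower in every immature class than in mature cells, and unlike the Hsp70 pair it was not higher in plasma cells or macrophages. Its level was 105 and 89.7 CPM in mature neutrophils, 42.9 and 62.4 in Ltf-high cells, 36.1 and 41.5 in Ngp-positive cells and 78.7 and 84.4 in cycling precursors. Plasma cells had 98.3 and 60.8 CPM, and macrophages 93.1 and 82.8, which overlapped the mature cells. Its changes were -0.83 in Ltf-high cells (SE 0.20, edgeR adjusted p = 0.00404), -1.23 in Ngp-positive cells (SE 0.30, edgeR adjusted p = 0.0137) and -0.79 in cycling precursors (SE 0.21, edgeR adjusted p = 0.00396). Without the YO1 sum of Ltf-high cells the first was -0.47 (edgeR adjusted p = 0.26), without that of Ngp-positive cells the second was -1.24 (edgeR adjusted p = 0.63), and without that of the cycling precursors the third was -0.79 (edgeR adjusted p = 0.059). Without the YO1 sum of mature cells none of the 3 was called, with -0.64 in Ltf-high cells and -0.60 in cycling precursors. In macrophages TMM gave -0.99 (SE 0.21, edgeR adjusted p = 0.000695), but total UMIs gave -0.16 (edgeR adjusted p = 0.59) and DESeq2 -0.32, and under DESeq2 and total UMIs the change in cycling precursors was not called either (-0.33 and -0.28).

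Hsph1 encodes Hsp110, a nucleotide exchange factor of Hsp70, at chr5:149614287-149636376 on the minus strand. It was a low transcript that rose strongly in plasma cells and macrophages. Mature neutrophils had 8.09 and 8.07 CPM, Ltf-high cells 2.20 and 4.02, cycling precursors 16.5 and 15.8, plasma cells 28.1 and 33.6 and macrophages 48.5 and 76.4. As CPM of all UMIs, and without regard to counting error, the pools of each of these 5 classes were separate from those of the others. The change was 2.22 in plasma cells (SE 0.31, edgeR adjusted p = 1.2e-05) and 2.13 in macrophages (SE 0.28, edgeR adjusted p = 7.93e-06). It was -1.41 in Ltf-high cells (SE 0.37, edgeR adjusted p = 0.00637), which stricter marker thresholds turned to 0.19, and which was not called without the YO1 sum of Ltf-high cells (-1.04) or of mature cells (-1.11). In cycling precursors 0.60 was not called (edgeR adjusted p = 0.107), whereas DESeq2 and total UMIs called 1.01 and 1.10.

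Dnaja1 encodes another J-domain partner of Hsp70, at chr4:40722150-40737149 on the plus strand, where it overlaps Smu1 and Gm6297, both counted in the matrix. Unlike the Hsp70 pair, it was lower in plasma cells and macrophages than in mature neutrophils. Mature neutrophils had 595 and 642 CPM and activated ones 677 and 682, against 444 and 488 in macrophages and 158 and 122 in plasma cells. Ltf-high cells had 244 and 239 CPM, Ngp-positive cells 251 and 269 and cycling precursors 238 and 274. No class other than the activated one reached the mature level in either pool. The change was -1.25 in Ltf-high cells (SE 0.19, edgeR adjusted p = 5.81e-05), -1.12 in Ngp-positive cells (SE 0.21, edgeR adjusted p = 0.00216) and -1.81 in cycling precursors (SE 0.19, edgeR adjusted p = 6.61e-07). It was -2.00 in plasma cells (SE 0.20, edgeR adjusted p = 2.84e-07) and -1.23 in macrophages (SE 0.19, edgeR adjusted p = 3.68e-05), of which the last was -0.40 and not called with total UMIs. Without the YO1 sum of Ngp-positive cells, the change there was -1.25 (edgeR adjusted p = 0.11).

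Hsp90aa1 encodes the inducible cytosolic Hsp90, at chr12:110690605-110702728 on the minus strand. It was highest in cycling precursors and macrophages and lowest in non-cycling immature neutrophils. Cycling precursors had 643 and 375 CPM, Ltf-high cells 91.6 and 103, Ngp-positive cells 69.1 and 62.2, and mature neutrophils 207 and 209. Plasma cells, at 239 and 144 CPM, overlapped the mature cells, and macrophages stood above them at 519 and 446. The fall from mature to Ltf-high cells was -1.01 (SE 0.22, edgeR adjusted p = 0.00194) and to Ngp-positive cells -1.53 (SE 0.29, edgeR adjusted p = 0.00271). Cycling precursors were higher by 0.76 (SE 0.22, edgeR adjusted p = 0.00706). Without the YO1 cycling sum, the one with primary granule transcripts, that change was 0.30 (edgeR adjusted p = 0.34), and without the YO1 sum of mature cells 0.62 (edgeR adjusted p = 0.11). Without the YO1 sum of Ltf-high or of Ngp-positive cells, the changes there were -0.77 (edgeR adjusted p = 0.098) and -1.64 (edgeR adjusted p = 0.31). In macrophages 0.39 was not called with TMM (edgeR adjusted p = 0.134), but total UMIs called 1.20 and DESeq2 1.05, and in plasma cells -0.03 with TMM became a called 0.82 with DESeq2.

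Hspa8 encodes the constitutive cytosolic Hsp70, at chr9:40800984-40810087 on the plus strand. Copies of it in the genome make it uncertain: 82.8% of the 42-base words in its last 500 bases occur in other annotated genes, none of them in the matrix. Mature neutrophils had 806 and 664 CPM, Ltf-high cells 433 and 359, Ngp-positive cells 474 and 415, cycling precursors 832 and 776, plasma cells 639 and 310 and macrophages 1698 and 1356. Ltf-high cells lay below the mature cells in both pools and macrophages above them, whereas cycling precursors overlapped. Ltf-high cells changed by -0.79 (SE 0.19, edgeR adjusted p = 0.00416), and leaving out either Ltf-high sum gave -0.76 and -0.82 with adjusted p-values of 0.081 and 0.052 in edgeR, as did -0.79 (0.051) without the YO2 sum of mature cells. Plasma cells changed by -0.60 (SE 0.20, edgeR adjusted p = 0.0151), which was -0.13 without their YO2 sum (edgeR adjusted p = 0.74), was not called without either sum of mature cells (-0.61 and -0.58), and turned to 0.26 with DESeq2. In macrophages 0.23 was not called with TMM (edgeR adjusted p = 0.307) and total UMIs called 1.05.

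Hspd1 (Hsp60) and Hspe1 (Hsp10) form the folding chamber of the mitochondrial matrix, and their genes share a promoter region. Hspd1 lies at chr1:55077835-55088243 on the minus strand and Hspe1 at chr1:55088132-55091307 on the plus strand, and the annotated genes overlap head to head by 112 bases. The window of Hspe1 is shown because its long heat shock elements also lie in a window of Hspd1. It is chr1:55087898-55088197 (plus strand), and capitals mark overlapping long heat shock elements that begin 89 and 84 bases before its start. That window of Hspd1 on the other strand (chr1:55087883-55088182) holds the same letters, beginning 144 and 139 bases before its own start. Another window of Hspd1 (chr1:55088194-55088493, minus strand) held neither the long nor the short form.
Hspe1: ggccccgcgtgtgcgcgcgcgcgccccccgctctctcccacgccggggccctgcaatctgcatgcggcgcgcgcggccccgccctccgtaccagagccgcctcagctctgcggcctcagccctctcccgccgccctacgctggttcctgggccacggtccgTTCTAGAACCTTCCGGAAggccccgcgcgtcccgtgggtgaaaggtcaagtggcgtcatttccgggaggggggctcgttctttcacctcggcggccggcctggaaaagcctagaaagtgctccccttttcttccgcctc
For Hspe1, 58.2% of the 42-base words in the last 500 bases occur in other annotated genes, none of them in the matrix, so its counts are uncertain in the same way as those of Hspa8.

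The pair was higher in cycling precursors, plasma cells and macrophages than in mature neutrophils. Hspe1 was at 15.5 and 20.9 CPM in mature neutrophils, 61.0 and 54.5 in cycling precursors, 105 and 63.8 in plasma cells and 132 and 169 in macrophages. Hspd1 was at 20.4 and 19.4 CPM in mature neutrophils, 76.4 and 40.5 in cycling precursors, 63.2 and 25.7 in plasma cells and 98.3 and 99.3 in macrophages. All of these classes lay above the mature cells in both pools. Hspe1 rose by 1.23 in cycling precursors (SE 0.23, edgeR adjusted p = 0.000224), 2.25 in plasma cells (SE 0.24, edgeR adjusted p = 4.95e-07) and 2.23 in macrophages (SE 0.22, edgeR adjusted p = 3.36e-07). Hspd1 rose by 1.13 (SE 0.25, edgeR adjusted p = 0.000974), 1.05 (SE 0.28, edgeR adjusted p = 0.00428) and 1.51 (SE 0.24, edgeR adjusted p = 5.28e-05) in the same classes. Without the YO1 cycling sum the rises there were 0.87 for Hspe1 (edgeR adjusted p = 0.062) and 0.49 for Hspd1 (edgeR adjusted p = 0.36). Without the 5% of cells with the most UMIs in each pool, 330 of 742 (YO1) and 46 of 78 (YO2) cycling precursors were left. There Hspe1 turned to -0.76 in cycling precursors, and Hspd1 was at 0.41 and not called. In Ltf-high cells, at 9.08 and 13.6 CPM for Hspe1 and 20.6 and 24.1 for Hspd1, neither gene was called (edgeR adjusted p = 0.054 and 0.555). Neither gene had a UMI among the 32 Ngp-positive cells of YO2, which allows up to 31.1 CPM.

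Hspa5 encodes BiP, the Hsp70 of the endoplasmic reticulum, at chr2:34771970-34777547 on the plus strand. It is the gene whose window (chr2:34771840-34772139, plus strand) held the ER stress element, which is CCAAT, then 9 bases of any kind, then CCACG. It begins 65 bases before the start and is in capitals here, and 39 of 32851 windows (0.119%) held it on either strand.
Hspa5: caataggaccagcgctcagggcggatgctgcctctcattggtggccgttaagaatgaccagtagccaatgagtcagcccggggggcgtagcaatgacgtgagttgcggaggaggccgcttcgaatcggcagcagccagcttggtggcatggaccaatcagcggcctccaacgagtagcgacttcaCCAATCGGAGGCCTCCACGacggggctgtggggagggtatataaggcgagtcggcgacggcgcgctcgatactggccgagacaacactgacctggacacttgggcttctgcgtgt
Plasma cells had the highest Hspa5, at 1491 and 1506 CPM, followed by macrophages at 897 and 931, activated neutrophils at 846 and 780 and mature neutrophils at 405 and 522. Cycling precursors had 349 and 350 CPM, Ltf-high cells 228 and 373 and Ngp-positive cells 139 and 269. As levels, without regard to counting error, the first 5 classes in this order were separate in both pools. The activated level of YO1 comes from 23 cells with 53178 UMIs of all genes. Ltf-high cells overlapped both cycling precursors and Ngp-positive cells, which did not overlap each other.

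Against mature cells, Hspa5 rose by 1.84 in plasma cells (SE 0.24, edgeR adjusted p = 5.43e-06). It changed by -0.89 in cycling precursors (SE 0.24, edgeR adjusted p = 0.00418), a change not called with DESeq2 (-0.44) or total UMIs (-0.38). In Ngp-positive cells it changed by -1.20 (SE 0.27, edgeR adjusted p = 0.00895), which was not called without the pool block (-1.22, edgeR adjusted p = 0.1), without the YO1 sum of these cells (-0.94) or without that of mature cells (-1.14). Ltf-high cells, at -0.55 (edgeR adjusted p = 0.0801), were not called. In macrophages 0.18 was not called with TMM (edgeR adjusted p = 0.528), while it was called higher with total UMIs and with DESeq2 (0.84).

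Counted by class, 7 of the 10 genes fell in Ltf-high immature neutrophils and 0 rose, where 35.1% of all genes tested were called, 17.6% lower and 17.5% higher. Those that fell were Hspa1a, Hspa1b, Dnajb1, Hsph1, Dnaja1, Hsp90aa1 and Hspa8. The median change of the 10 was -0.92, and -0.04 over all genes. Without the YO1 sum of Ltf-high cells 3 were called lower. Of 15 other HSF1-inducible genes 2 rose and 3 fell, of 13 subunits of the cytosolic chaperonin TRiC and prefoldin 4 rose and 0 fell, and of 22 genes of the endoplasmic reticulum 7 rose and 4 fell, while 0 of 9 mitochondrial genes were called. Among them Chordc1, an Hsp90 co-chaperone, rose by 1.91 (43.7 and 48.3 CPM against 14.5 and 11.6 in mature cells), and Cct2, a TRiC subunit, by 1.05. Ptges3, the Hsp90 co-chaperone p23, changed by -1.05, and Ddit3, the stress factor CHOP, by -1.75. All 14 immediate early genes fell, with a median of -2.63, Fosb by -3.51 and Atf3 by -3.40, and their summed level was 3383 and 7392 CPM against 32667 and 34552 in mature cells. Their part in the lower heat shock genes was not tested.

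In Ngp-positive cells 6 of the 10 fell and 0 rose, with 8.28% of all genes called, 3.66% lower and 4.62% higher. The 6 were Hspa1a, Hspa1b, Dnajb1, Dnaja1, Hsp90aa1 and Hspa5. The YO2 sum holds 32 cells, and without the YO1 sum 0 of the 10 were called and without the YO1 sum of mature cells 2. Hsph1 (-1.18), Hspa8 (-0.61), Hspd1 (-1.30) and Hspe1 (-0.99) were not called. St13, an Hsp70 co-chaperone, changed by -1.42, Pfdn2 of prefoldin by -1.92 and Xbp1, a factor of the unfolded protein response, by -1.48. Of the 14 immediate early genes 11 fell, with Fosb at -3.19.

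In cycling granulocyte precursors 3 of the 10 rose (Hsp90aa1, Hspd1, Hspe1) and 5 fell (Hspa1a, Hspa1b, Dnajb1, Dnaja1, Hspa5), where 56.9% of all genes were called, 28.4% higher and 28.5% lower. Hsph1 and Hspa8 (-0.39, edgeR adjusted p = 0.0944) were not called. Without the YO1 cycling sum 0 rose. The split of all genes moved with scaling, from 3265 higher and 3281 lower with TMM to 4513 and 2117 with total UMIs and 3812 and 1897 with DESeq2. Most TRiC and prefoldin genes rose (9 of 13, with 1 lower, median 1.13), as did 7 of 9 mitochondrial chaperones and proteases (0 lower, median 1.32) and 14 of 22 genes of the endoplasmic reticulum (5 lower). Tcp1, the first TRiC subunit, rose by 2.31 (143 and 82.7 CPM against 15.6 and 16.7), Pfdn1 by 2.24, Fkbp4, an Hsp90 co-chaperone, by 1.87 and Hspa14 by 1.18. Dedd2 changed by -2.48, Ddit3 by -3.06 and Dusp1, an immediate early phosphatase, by -4.48, and all 14 immediate early genes fell.

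Activated neutrophils, with Il1a, Icam1 and Nr4a3 and the S100a8 and S100a9 share of mature cells, were few, and the YO1 sum of 23 cells was too small to enter the fit. Endothelial markers in that YO1 sum were at 3065 CPM. The group is then 1 sum, its spread is taken to be that of the other classes, and an adjusted p here does not measure the spread of activated cells between pools. With the YO2 sum alone 0 of the 10 genes were called in either direction by edgeR, where 2.08% of all genes were (239 genes, 1.43% higher and 0.652% lower, and 1676 genes at an unadjusted p under 0.05). DESeq2 also called 0 of the 10. The summed Hsp70 pair (Hspa1a+Hspa1b) was at 301 and 86.6 CPM in activated against 479 and 182 in mature cells. Within YO2 the change was -1.27, and the fit, which estimates 1 pool difference over all classes and averages both mature sums, gave -2.20 (SE 0.62, edgeR adjusted p = 0.0814). It was called in 6 of 13 alternatives (edgeR or DESeq2 adjusted p of 1.74e-06 to 0.842), among them at -3.13 without the YO2 sum of mature cells, which leaves the activated sum and the mature sum in different pools. P4hb, a disulfide isomerase of the endoplasmic reticulum, was called at 1.78 (edgeR adjusted p = 0.0483) and Ubb at -1.12 (edgeR adjusted p = 0.0399), with the same limit.

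Most cells with the activation genes had a lower S100 share: 698 of 844 cells with at least 3 UMIs of Il1a, Icam1 and Nr4a3 had S100a8 and S100a9 under 2% of their UMIs. An alternative chosen after seeing the data therefore took cells with these genes and any UMI of Csf3r, the receptor for G-CSF, 52 in YO1 and 541 in YO2. Csf3r UMIs were also in 44.5% and 62.5% of macrophages and 30.2% and 22.5% of plasma cells, so Csf3r does not by itself select neutrophils. Summed neutrophil markers were at 19772 and 16758 CPM under this rule. They were at 43890 and 45376 in the planned activated class and 85161 and 68918 in mature cells. Under the Csf3r rule 3 of the 10 genes rose and 2 fell, where 36.4% of 10394 genes were called, 17.9% higher and 18.5% lower. The activation genes alone, without limits on S100 share and Ngp, also gave 3 higher and 2 lower. Hsph1 rose by 2.29 (108 and 42.8 CPM, SE 0.39, edgeR adjusted p = 0.000393), Hspe1 by 1.84 (97.0 and 99.9 CPM, SE 0.26, edgeR adjusted p = 9.08e-05) and Hspd1 by 1.05 (53.9 and 60.3 CPM, SE 0.30, edgeR adjusted p = 0.0138). Dnajb1 changed by -0.87 (SE 0.27, edgeR adjusted p = 0.019) and Dnaja1 by -0.59 (SE 0.22, edgeR adjusted p = 0.0454). The Hsp70 pair, at 695 and 274 CPM, was not called (-0.17, edgeR adjusted p = 0.784). Hsp90ab1 rose by 0.88, and in the endoplasmic reticulum list 11 of 22 genes rose and 1 fell, with Sdf2l1 at 2.70 and Pdia4 at 2.02. Markers of other cell types were present in these sums: endothelial markers at 2636 CPM in YO1 and 10 in YO2, epithelial markers at 53.9 and 1446, and macrophage markers at 1984 and 923, against 893 and 798 in mature cells. Their part in these changes was not tested.

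In plasma cells 6 of the 10 genes rose (Hspa1a, Hspa1b, Hsph1, Hspd1, Hspe1, Hspa5) and 2 fell (Dnaja1, Hspa8), where 59.7% of all genes were called, 28.8% higher and 30.9% lower. Dnajb1 (-0.22) and Hsp90aa1 (-0.03) were not called. Without the YO2 plasma sum or either sum of mature cells 1 gene, Dnaja1, fell. Hspa5 moved with nearly the whole endoplasmic reticulum list, of which 20 of 22 genes rose and 1 fell, with a median of 2.89. Pdia4, a disulfide isomerase, rose by 6.42 (695 and 431 CPM against 7.69 and 6.31), Sdf2l1, a partner of BiP, by 5.79, Manf by 5.13 and Creld2 by 5.01. The list summed to 15076 and 12167 CPM in plasma cells against 1538 and 1567 in mature neutrophils. Of 9 mitochondrial genes 7 rose, and of 15 other HSF1-inducible genes 6 rose, with Fkbp4 at 2.29, and 4 fell, with Dedd2 at -2.66. The immunoglobulin share of the plasma cells' UMIs lowers the CPM of every other gene in this class.

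In C1q macrophages 5 of the 10 rose (Hspa1a, Hspa1b, Hsph1, Hspd1, Hspe1) and 2 fell (Dnajb1, Dnaja1), where 59.8% of all genes were called, 30.1% higher and 29.7% lower. Without the YO2 sum of mature cells 3 rose. With total UMIs 8 rose and 0 fell, and with DESeq2 8 rose and 1 fell, while all genes went from 3459 higher and 3415 lower to 5555 and 1574 or 4428 and 1736. Hspa1a, Hspa1b, Hsph1, Hspd1 and Hspe1 were called higher under each of these scalings. Hsp90ab1, the constitutive Hsp90, rose by 1.26 (1900 and 1446 CPM against 466 and 330), Fkbp4 by 1.87, and Sdf2l1 by 3.57, among 16 of 22 genes of the endoplasmic reticulum that rose and 3 that fell. Of 14 immediate early genes 10 fell and 0 rose, with Fosl2 at -2.47. In macrophages and plasma cells without any Csf3r UMI, Hspa1b was at 0.85 in macrophages (edgeR adjusted p = 0.112) and Hspa1a stayed called.

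**Figure D5:**
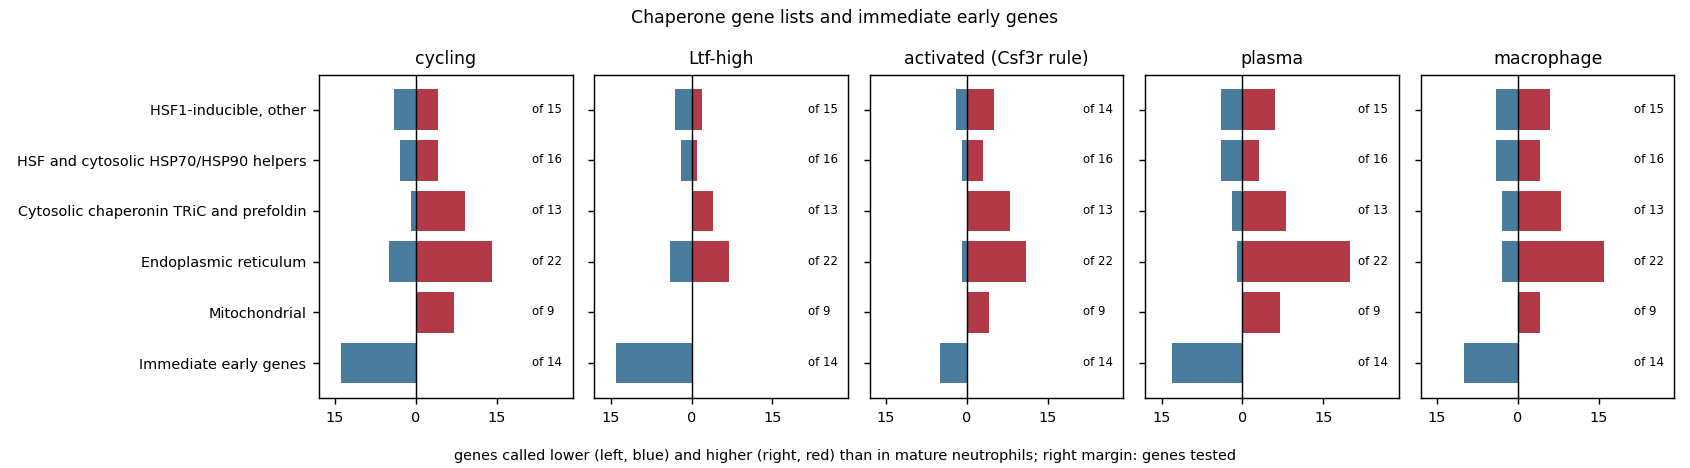
Number of genes called higher (right) and lower (left) by edgeR in each chaperone list and in the immediate early genes, for 5 comparisons with mature neutrophils. Genes of the endoplasmic reticulum were mostly higher in plasma cells (20 of 22) and macrophages (16 of 22), and no immediate early gene was higher in any of the 5.

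Over the 13 sums, the levels of Hspa1a and Hspa1b had a Pearson correlation of 0.906 on log2(CPM + 1), the cytosolic Hsph1 and mitochondrial Hspe1 of 0.968, and Hspd1 and Hspe1 of 0.946. Dnaja1 had correlations of -0.0559 to 0.528 with the others. These values describe 13 sums that share pools and classes. Among 4955 other genes, the summed Hsp70 pair was most like Rrbp1, a ribosome receptor of the endoplasmic reticulum (0.963), then Atf6, Mef2c, Serinc3 and Itm2c (0.895). Hsp90aa1 was most like the translation factor Eif4a1 (0.972), then Set, Rnps1, Cacybp and Ddx39b (0.946). Hspa5 was most like Sec63, a J-domain partner of BiP at the translocon (0.953), then Atf6, Herpud1, Sar1a and Tmed10. Hspd1 was most like Trp53 (0.985), then Eif3m, Glrx5, G3bp1 and Mat2a (0.970).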

How the data were processed

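The authors deposited 1 matrix of raw UMI counts per gene and barcode of 2 BD Rhapsody pools (replicate 1 is YO1, replicate 2 is YO2). The build is mm10, per the submitters' processing notes, and the sources used here name no aligner, annotation or cell caller. Sample tag libraries and 1 unassigned sample were not analysed here.

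A cell was kept with 200 or more UMIs, 100 or more genes and a mitochondrial share under 20%, leaving out 847 barcodes in YO1 (4.16%) and 505 in YO2 (2.85%). Exclusive classes were assigned in this order. Plasma cells had at least 5 Jchain UMIs and at least 5% immunoglobulin constant gene UMIs, and macrophages at least 3 C1qa, C1qb and C1qc UMIs, both with S100a8 and S100a9 under 2%. Cycling precursors had at least 2 Mki67 and Top2a UMIs and at least 3 granule gene UMIs, Ltf-high cells at least 5 Ltf UMIs and Ngp-positive cells at least 10 Ngp UMIs with Ltf under 5. Activated and mature cells had S100a8 and S100a9 at 2% or more and Ngp under 3. Activated cells had at least 3 UMIs of Il1a, Icam1 and Nr4a3 together, and mature cells fewer. No doublet caller was run, and a doublet of mixed markers can enter a class that its thresholds admit.

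UMIs were summed per class and pool (at least 30 cells) and tested with edgeR 4.0.16 in R 4.3.3 (TMM, filterByExpr, glmQLFit and glmQLFTest, two-sided, pool as a block, 5 residual degrees of freedom, Benjamini-Hochberg adjustment over 11497 genes). Alternatives used DESeq2 1.42.0. Same-numbered sums share a cartridge per the labels, and their deviations from the class means correlated at 0.0387 to 0.545 (13 of 15 pairs over 0.1). On simulated counts, 45 of 100 genes changed 2-fold and 82 of 100 changed 4-fold were recovered for Ltf-high against mature, with 4 of 8964 unchanged genes called (9139 genes), and 36 and 82 of 100 for macrophages, with 6 of 8904 (9078 genes). There every class had the mature profile of its pool, and only the changed genes were raised, in 1 class. The simulation cannot show false calls that come from scaling, because it holds no broad difference between classes.

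The 10 genes, the lists and the class rules were chosen with earlier results of these data known. From each list the text names called genes with the largest absolute change, at most 4 per comparison, averaging at least 20 CPM, and 1 such gene is not reported here. Genes of like pattern are the 5 with the highest Pearson correlation, leaving out members, numbered gene models, ribosomal and mitochondrial genes. Intervals use a confidence level of 95%, a count of 0 is bounded by 3 counts, and both cover counting error only. Promoter windows come from RefSeq on GRCm38.p6.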

Additional observations from a re-analysis of the deposited data

How the results depend on the processing

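With 2 pools, no fit has more than 2 sums per class, and 1 sum decides many calls. Changes of single genes under the alternatives counted as the same in 924 cases, gained a call in 48, lost it in 86 and reversed in 5. A called gene had to keep its call and direction, and a gene not called had only to stay uncalled. The 924 include changes within 1 pool, which have no test: 44 without replicate 1 and 50 without replicate 2. These counted as the same within 1 standard deviation, itself taken from the 2 pools, and 26 such changes moved. The 5 reversals were Hspe1 in cycling precursors without the 5% of cells with the most UMIs (-0.76), Hsph1 in Ltf-high cells with stricter thresholds (0.19), Hspa1a in plasma cells without replicate 2 (-0.17, against 2.42 without replicate 1), and with DESeq2 Hsp90aa1 (0.82) and Hspa8 (0.26) in plasma cells. The causes were not tested. The setting called thresholds alone drops the granule genes from the cycling rule and the S100 and Ngp limits from the activated rule, and leaves the cells of the other classes as they were. The 5% of cells with the most UMIs were taken over each pool as a whole, not per class. That left 330 and 46 cycling precursors (YO1 and YO2) and 18 and 83 plasma cells. The YO1 plasma sum, under 30 cells, did not enter that fit.

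The pool was a block in the reported fit. With no replicate block, the number of the 10 genes called was the same in cycling (3 higher, 5 lower), Ltf-high (0 and 7) and plasma cells (6 and 2), 0 and 4 in Ngp-positive cells and 4 and 2 in macrophages. Over all genes the fit without the block called 186 lower in Ngp-positive cells and 93 higher and 12 lower in activated cells, counts that moved by over 1.5 times.

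In cycling precursors, without the 5% of cells with the most UMIs 1 of the 10 was higher, and 3 were lower with DESeq2, with total UMIs or thinned to 500 UMIs, and 2 with thresholds alone. All genes gave 1897 lower with DESeq2, 2117 with total UMIs, and 1884 higher and 1377 lower thinned to 500 UMIs. Leaving out 1 sum gave 0 to 3 of the 10 higher, and 1630 to 3190 genes higher and 2149 to 3380 lower. In Ltf-high cells leaving out 1 sum gave 3 to 6 of the 10 lower, and 1062 to 1282 genes higher and 1021 to 1462 lower. Thinned to 500 UMIs, 1218 genes were higher and 1145 lower, and thresholds alone gave 1345 lower.

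In Ngp-positive cells thresholds alone gave 3 of the 10 lower, with 263 genes higher and 137 lower. Without immunoglobulin genes, S100a8 and S100a9 the genes were 249 higher and 1150 lower, with stricter thresholds 293 higher, thinned to 500 UMIs 266 higher and 273 lower, and with no filter on low counts 663 lower. Leaving out 1 sum gave 0 to 6 of the 10 lower, and 52 to 469 genes higher and 9 to 307 lower.

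In activated cells 3 of the 10 were higher and 2 lower with thresholds alone and with the class set by Csf3r, and 2 were lower without immunoglobulin genes, S100a8 and S100a9 and with no filter on low counts. Leaving out 1 sum of mature cells gave 0 to 2 lower, 105 to 152 genes higher and 24 to 45 lower. Genes called were 2403 higher and 2344 lower with thresholds alone, 1859 and 1928 by Csf3r, 255 and 137 without the 5% of cells with the most UMIs, and 94 and 27 thinned to 500 UMIs. DESeq2 gave 295 higher, total UMIs 8 lower, the totals without immunoglobulin genes, S100a8 and S100a9 161 lower, no filter on low counts 415 lower and a fit of neutrophil classes only 124 lower. Stricter thresholds left too few activated cells in either pool, and the comparison could not be fitted without the YO2 sum.

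In plasma cells 3 of the 10 were higher without the 5% of cells with the most UMIs, and 1 was lower with DESeq2, total UMIs, thresholds alone, without immunoglobulin genes, S100a8 and S100a9, without the 5% of cells with the most UMIs and thinned to 500 UMIs. Leaving out 1 sum gave 1 to 2 lower, 1713 to 3276 genes higher and 1695 to 3331 lower. Genes called were 1380 higher and 2113 lower without the 5% of cells with the most UMIs, 1056 and 1353 thinned to 500 UMIs, and 1924 lower with DESeq2. In macrophages 8 of the 10 were higher with DESeq2 and total UMIs, with 1 and 0 lower, 3 were higher with thresholds alone, and 1 was lower thinned to 500 UMIs. Leaving out 1 sum gave 3 to 5 higher and 1940 to 2892 genes higher. Genes called were 5555 higher and 1574 lower with total UMIs, 1813 and 1456 thinned to 500 UMIs, and 1736 lower with DESeq2.

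As CPM of totals without immunoglobulin genes, S100a8 and S100a9, the 10 genes summed to 2637 and 2362 in cycling precursors, 1305 and 1423 in Ltf-high cells, 1204 in Ngp-positive cells of YO1, 2823 and 2491 in mature cells and 6188 and 7301 in plasma cells (YO1 and YO2). The share of cells with UMIs of Hspa1a, Hspa1b and Dnajb1 depended on depth and on the minimum. In mature cells it was 5.86% and 3.66% not thinned, 3.94% and 1.59% thinned to 1000 UMIs, 11.7% and 8.22% for at least 1 UMI, and 1.76% and 0.151% for at least 5. Macrophages had 39.3% and 54.8% not thinned, 16.4% and 21.1% at 1000 UMIs, 32.9% and 34.6% for at least 1 UMI, and 3.11% and 1.57% for at least 5. Plasma cells had 27.9% and 50.9% not thinned, 13.2% and 8.82% at 1000 UMIs, 16.7% and 26.1% for at least 1 UMI, and 0.532% for at least 5 in YO2. Ltf-high cells had 1.79% and 4.21% not thinned, 0.367% at 1000 UMIs in YO1, 2.75% and 4.88% for at least 1 UMI, and 0 for at least 5 in YO1.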
